A study of Mus musculus with 3 samples.

Results

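The genes described here encode nuclear subunits of the mitochondrial respiratory chain and of the ATP synthase, measured in undifferentiated R1 mouse embryonic stem cells. Members were chosen by name: every probe set whose only gene symbol was an Nduf subunit (complex I), Sdha to Sdhd (complex II), a Uqcr gene (complex III), a Cox4 to Cox8 gene (complex IV) or an Atp5 gene (complex V, the ATP synthase). This gave 81 of the 18193 genes with a probe set of their own, through 164 of the array's 45101 probe sets. A further 9 probe sets that match these names but carry several symbols were left out, and with them the high probe sets of Ndufb4. The complex I subunits Ndufa11 and Ndufs6 were measured only by such probe sets and are therefore not members. Expression was measured once in each of 3 conditions: untreated cells, for which the labels give no time, cells given 20 ng/ml of the growth factor BMP4 for 4 h, and cells given 100 ng/ml of noggin, a secreted inhibitor of BMPs, for 4 h. All 3 samples are the same wild-type line, R1, and the labels do not state the medium or whether feeder cells were present. With 1 array per condition there is no replicate error and no test, and every difference below is a difference between 2 arrays.

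The respiratory chain passes electrons from NADH through complex I, or from succinate through complex II, to ubiquinone, then through complex III and cytochrome c to complex IV, which reduces oxygen. Complexes I, III and IV pump protons across the inner mitochondrial membrane, and the ATP synthase uses the return flow to make ATP. Pluripotent stem cells are known for a high rate of glycolysis, yet they keep a working respiratory chain. Several complex IV subunits exist as isoforms encoded by separate genes, a widely expressed form and a form restricted to heart and skeletal muscle, lung or testis.

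Values are log2 expression values computed by the authors with RMA, so that a difference of 1 is a 2-fold difference. A probe set was called above the floor if its highest value on the 3 arrays exceeded 3.44, the median of all values. By that rule 63.7% of all genes had a probe set above the floor. The label of the cells was checked first. All 10 embryonic stem cell markers examined were above the floor and lay between 8.95 (Fgf4) and 12.83 (Dppa5a) in untreated cells, while fibroblast markers lay between 2.29 (Lum) and 4.93 (S100a4), with 5 of 8 above the floor. S100a4 differed by −0.55 with BMP4. Id1, a known direct target of BMP signalling, measured 8.78 untreated, 11.54 with BMP4 and 8.59 with noggin. All 6 BMP response genes examined were higher with BMP4. With noggin 3 were lower (Id1, Id2 and Id3, by −0.19 to −0.49), Smad6 was equal, Msx2 differed by 0.06 and Smad7 by 0.16. Poly-A control RNAs, which are added to a sample ahead of labelling, were measured by 24 probe sets. All 24 were lower with BMP4 than in untreated cells (median difference −0.63), and 23 were lower with noggin (median −0.18). The 18 probe sets for the hybridisation control RNAs had median differences of 0.01 with BMP4, where 3 were lower, and −0.0058 with noggin, where 9 were lower. The part of that shift in the results below was not tested.

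The chain was broadly expressed. Of the 164 member probe sets, 149 (90.9%) were above the floor on at least 1 of the 3 arrays, against 57.6% of all 34945 probe sets with 1 symbol. On all 3 arrays 148 exceeded it. At least 1 probe set above it was found for 79 of the 81 genes, against 63.7% of all genes. By its highest probe set in untreated cells, 69 of the 81 genes (85.2%) lay above 8.71, the value that 10% of all genes on the array exceeded. The level of a probe set depends on its probes as well as on its transcript, so these positions describe the array and no order between subunits is read from them. Of the 48 genes with several probe sets, 20 had probe sets more than 4 apart, and 11 had at least 1 that was not above the floor. Cox5b, a nuclear subunit of complex IV, shows the range: its 6 probe sets measured 11.66, 11.10, 10.61, 10.57, 3.65 and 2.09 in untreated cells.

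**Figure D1:**
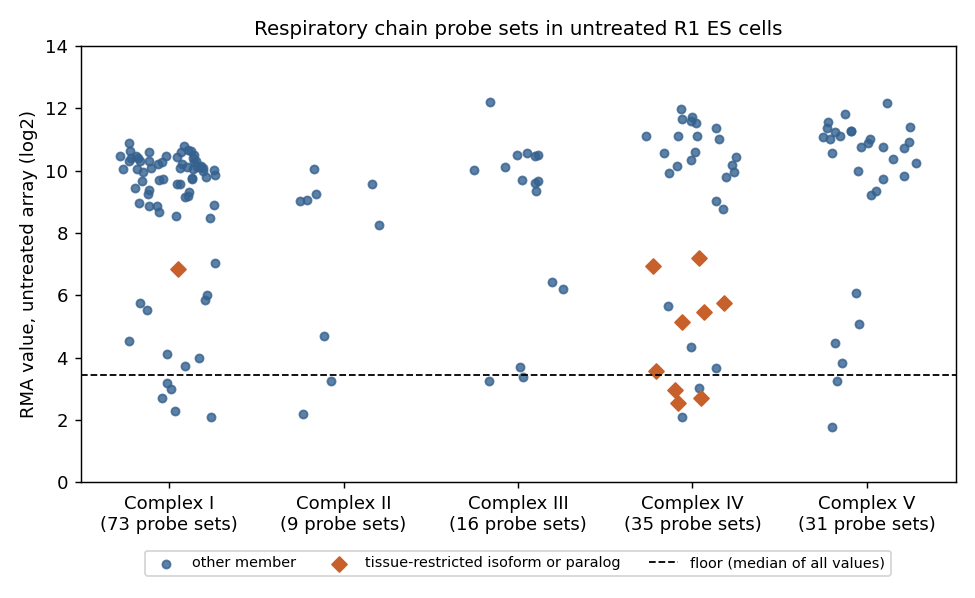
RMA values (log2, vertical axis) of all 164 member probe sets on the untreated array, by complex (horizontal axis); each point is 1 probe set, diamonds mark tissue-restricted isoforms and paralogs, and the dashed line is the floor of 3.44. Most points lie above 8, and the diamonds lie between 2.54 and 7.19; heights of different probe sets are not compared.

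In complex I, which holds 35 of the member genes, the highest probe set of 31 genes lay above 8.71 in untreated cells. The core subunits that carry the flavin and the iron-sulfur clusters were among them. Ndufv1, which holds the NADH-binding flavin site, measured 9.99 on all 3 arrays with 1 probe set, and 10.04 untreated, 9.89 with BMP4 and 10.04 with noggin with another. Ndufs1, the largest iron-sulfur subunit, measured 9.44 untreated, 9.34 with BMP4 and 9.42 with noggin. Ndufs3, a core subunit of the arm that leads towards quinone, measured 9.19, 9.25 and 9.08 in the same order. Ndufs7, another core subunit, measured 9.56, 9.44 and 9.41, and by its other probe set 8.97, 8.97 and 8.93. These arrays lay within 0.2 of each other for every one of those genes. Among the accessory subunits, Ndufa1 measured 10.89 on all 3 arrays and Ndufa9 measured 10.08 on all 3. Ndufb4 was represented by 1 probe set at 2.09, not above the floor; the probe sets shared by Ndufb4, Ndufb4b and Ndufb4c measured 10.13 and 10.05 in untreated cells and are not members. Ndufb1 measured 5.99 with noggin and lay within 0.02 of that on the other arrays.

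Complex II, succinate dehydrogenase, also works in the citric acid cycle and has 4 subunits, all above the floor. Sdha, the flavoprotein that oxidises succinate, measured 9.55 untreated, 9.55 with BMP4 and 9.57 with noggin. Sdhb, the iron-sulfur subunit, measured 10.04 on the untreated and BMP4 arrays and differed by −0.04 with noggin. The membrane anchors followed the same order of arrays: Sdhc measured 9.26, 9.38 and 9.17, and Sdhd 9.06, 9.16 and 8.97, each highest with BMP4 and lowest with noggin. The other probe set of Sdhc measured 8.26 untreated and 8.29 with BMP4 and was lowest with noggin, in the same order, while that of Sdhd measured 4.70, 4.69 and 4.62 and was highest in untreated cells. A further pair of Sdha probe sets, at 3.24 and 2.19 in untreated cells, was not above the floor.

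In complex III all 8 genes lay above 8.71. Uqcrfs1, the Rieske iron-sulfur protein that takes electrons from ubiquinol, measured 10.11 on all 3 arrays. The core proteins Uqcrc1 and Uqcrc2 form the matrix-side part of the complex: Uqcrc1 measured 10.49 untreated and 10.53 with BMP4 and with noggin, and Uqcrc2 10.02, 10.02 and 9.91. Uqcrb, a small subunit of the ubiquinone-binding region, measured 12.21, 12.16 and 12.16. Uqcrh, the hinge protein that helps cytochrome c1 meet cytochrome c, was lowest with noggin by both probe sets, at 10.56, 10.63 and 10.45 and at 9.61, 9.68 and 9.48.

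The 17 genes named for complex IV divide into widely expressed subunits and isoforms of restricted tissues, and 9 of them lay above 8.71. Cox4i1 and Cox5a, which bind the mitochondrially encoded core, measured 11.73 and 11.58 in untreated cells, 11.64 and 11.63 with BMP4, and 11.71 and 11.55 with noggin. Cox6c measured 11.10 on all 3 arrays by its higher probe set. Cox7a2l, a paralog known for joining complexes III and IV in supercomplexes, measured 9.80, 9.76 and 9.80. Cox7c was represented by probe sets at 5.65 and 4.33 in untreated cells, both above the floor.

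In complex V all 17 genes lay above 8.71. The catalytic beta subunit Atp5b measured 12.18 untreated and 12.25 with BMP4 and with noggin, and the alpha subunit Atp5a1 measured 11.55, 11.60 and 11.60. Both were higher on each treated array than on the untreated one, by 0.04 for Atp5a1 and by 0.07 to 0.08 for Atp5b, but the other probe sets of Atp5a1, at 10.74 and 6.06 untreated, gave −0.03 and −0.08 with BMP4. The gamma subunit Atp5c1, the rotating shaft, measured 11.36, 11.29 and 11.36, and Atp5o, in the stalk that holds the catalytic head still, 11.09, 11.09 and 11.04. Atp5g1, Atp5g2 and Atp5g3 encode the same mature c subunit of the proton-driven ring behind different import peptides, and all 3 were expressed. Atp5g1 measured 11.28, 11.28 and 11.20, Atp5g2 10.93, 10.87 and 10.88, and Atp5g3 11.80, 11.88 and 11.75. None of the 3 c subunit genes was more than 0.14 apart between any pair of arrays by these probe sets.

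The isoforms of restricted tissues were next described against the floor. Of 8 such genes, 7 had a probe set above it, as had 72 of the other 73 member genes and 63.7% of all genes. A value above the floor is therefore not read as expression of a restricted form. Untreated values of the 8 ran from 2.97 to 7.19. The muscle isoforms differed in this respect. Cox7a1, the heart and skeletal muscle form of subunit VIIa, measured 7.19 untreated, 7.14 with BMP4 and 7.14 with noggin. Cox6a2, the muscle form of subunit VIa, measured 5.13 on all 3 arrays by 1 probe set and 2.54, 2.46 and 2.23, not above the floor, by the other. Cox8b, the muscle form of subunit VIII, was not above the floor, at 2.97, 2.97 and 3.06. Their widely expressed counterparts Cox7a2, Cox6a1 and Cox8a measured 11.35, 11.97 and 10.14 in untreated cells. The 9 striated muscle and heart markers examined lay between 2.35 (Tnnt2) and 4.82 (Acta1) in untreated cells, and 6 of the 9 were above the floor.

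Cox4i2, the lung form of subunit IV that is induced by low oxygen, was close to the floor at 3.58, 3.58 and 3.55. Ndufa4l2, a paralog of Ndufa4 that low oxygen also induces, measured 6.85 on all 3 arrays, and Ndufa4, now counted as a complex IV subunit, 10.28 untreated, 10.35 with BMP4 and 10.22 with noggin. The testis forms were all above the floor by at least 1 probe set. Cox6b1, the widely expressed counterpart of Cox6b2, measured 11.12 in untreated cells. Cox6b2 measured 6.94 untreated, 6.96 with BMP4 and 6.87 with noggin, Cox7b2 5.74, 5.48 and 5.48, and Cox8c 5.47, 5.55 and 5.72. A second probe set of Cox8c was not above the floor, at 2.70, 2.86 and 2.56, and its order of arrays was different. Cyct, the testis form of the electron carrier cytochrome c, measured 7.43, 7.23 and 7.19, and the somatic form Cycs measured 11.07, 11.03 and 10.93. Of the 8 testis germ cell markers, 5 were above the floor in untreated cells, Cyct included, with Ldhc at 6.54, Sycp3 at 6.57, Prm1 at 4.77 and Ddx4 at 4.70, while Tnp1, Prm2 and Pgk2 were not.

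**Figure D2:**
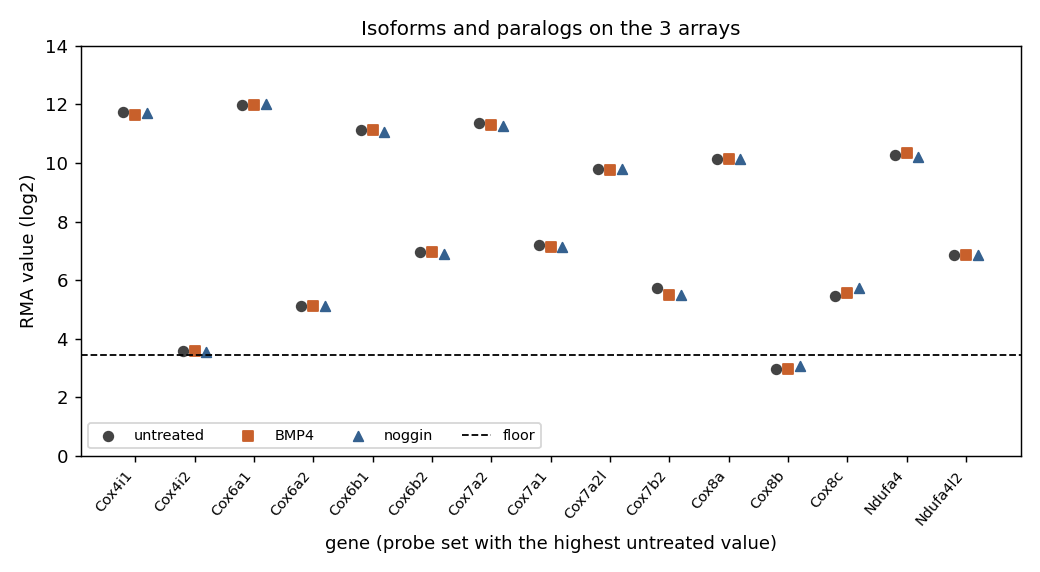
RMA values (log2, vertical axis) on the untreated (circles), BMP4 (squares) and noggin (triangles) arrays for the isoforms and paralogs named on the horizontal axis, each by its probe set with the highest untreated value; the dashed line is the floor of 3.44. The 3 symbols of a gene lie close together, Cox8b lies below the floor at 2.97 to 3.06 and Cox4i2 just above it at 3.55 to 3.58; heights are not compared between genes.

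The promoters of the members were examined for features that their names did not use, because genes of the respiratory chain are known targets of the factors NRF1 and GABPA. Of the 81 genes, 66 matched an entry in the RefSeq promoter table (build GRCm38.p6), and the 250 bases before the first listed start were searched on both strands. The promoters with the most NRF1 matches among the members that were expressed at 9 or more are shown to let the motif be seen. They are Cox6a1 at chr5:115348959-115349208 on the minus strand, and Sdha at chr13:74350241-74350490 on the minus strand. Capitals mark matches to the NRF1 motif (GCGCA, any base, then GCGC) or to the ETS motif CCGGAAG, which GABPA binds.
Cox6a1: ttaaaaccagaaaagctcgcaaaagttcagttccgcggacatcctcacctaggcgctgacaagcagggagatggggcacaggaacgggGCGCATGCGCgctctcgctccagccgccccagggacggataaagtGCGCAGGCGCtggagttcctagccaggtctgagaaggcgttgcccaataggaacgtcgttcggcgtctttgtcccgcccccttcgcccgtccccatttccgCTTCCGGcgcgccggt
Sdha: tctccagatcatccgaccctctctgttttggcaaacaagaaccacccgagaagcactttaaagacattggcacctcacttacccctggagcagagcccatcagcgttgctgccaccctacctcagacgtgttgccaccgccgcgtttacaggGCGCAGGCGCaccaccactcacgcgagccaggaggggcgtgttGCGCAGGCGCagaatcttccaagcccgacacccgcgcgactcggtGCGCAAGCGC

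Cox6a1 had 2 NRF1 matches and 1 ETS match, and Sdha had 3 NRF1 matches. An NRF1 match was found in 10 of the 66 promoters (15.2%), against 8.64% of the 9381 genes of the array above the floor and 11.7% of the 1233 genes with a value above 9. The 10 genes were Atp5g2, Atp5h, Atp5k, Cox6a1, Ndufa5, Ndufa8, Ndufb4, Ndufs5, Sdha and Sdhd. An ETS match was found in 11 promoters (16.7%), against 14.2% and 20.7% in the same backgrounds, and the YY1 motif AAGATGGCG in 0, against 1.23% and 1.86%. The share with an NRF1 match was above that of both backgrounds, and the share with an ETS match lay between them. Neither difference was tested. The 66 members were not filtered by level, unlike both backgrounds, and they include Ndufb4, with 3 NRF1 matches and a probe set not above the floor. CpG dinucleotides numbered 10 or more in 49 of the 66 promoters (74.2%), against 75.3% of the genes above the floor.

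The isoform pairs with both promoters in the table are printed to show how the widely expressed and the restricted form differ in CpG dinucleotides, which are in capitals. The positions are Cox6b1 at chr7:30626115-30626364 on the minus strand, Cox6b2 at chr7:4753095-4753344 on the minus strand, Cox7a2 at chr9:79759854-79760103 on the minus strand, Cox7a1 at chr7:30183921-30184170 on the plus strand, Cox8a at chr19:7217617-7217866 on the minus strand, and Cox8b at chr7:140900447-140900696 on the minus strand.
Cox6b1: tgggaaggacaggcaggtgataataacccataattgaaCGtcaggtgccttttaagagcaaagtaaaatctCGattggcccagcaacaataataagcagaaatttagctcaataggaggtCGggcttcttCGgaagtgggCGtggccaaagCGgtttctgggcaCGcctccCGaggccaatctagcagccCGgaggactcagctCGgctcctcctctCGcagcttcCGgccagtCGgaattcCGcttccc
Cox6b2: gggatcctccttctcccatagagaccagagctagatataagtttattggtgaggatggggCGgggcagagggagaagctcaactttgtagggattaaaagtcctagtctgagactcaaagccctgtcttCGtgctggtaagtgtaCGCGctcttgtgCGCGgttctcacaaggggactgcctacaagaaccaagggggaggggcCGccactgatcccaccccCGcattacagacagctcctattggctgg
Cox7a2: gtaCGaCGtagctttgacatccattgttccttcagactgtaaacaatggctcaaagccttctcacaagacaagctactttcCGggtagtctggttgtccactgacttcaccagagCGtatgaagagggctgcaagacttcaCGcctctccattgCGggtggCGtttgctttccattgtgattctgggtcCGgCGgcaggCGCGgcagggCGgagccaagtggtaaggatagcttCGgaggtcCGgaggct
Cox7a1: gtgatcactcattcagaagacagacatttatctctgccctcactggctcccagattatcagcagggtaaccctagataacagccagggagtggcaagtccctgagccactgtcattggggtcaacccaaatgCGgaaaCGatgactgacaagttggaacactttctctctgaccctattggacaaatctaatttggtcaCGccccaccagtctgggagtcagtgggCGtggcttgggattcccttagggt
Cox8a: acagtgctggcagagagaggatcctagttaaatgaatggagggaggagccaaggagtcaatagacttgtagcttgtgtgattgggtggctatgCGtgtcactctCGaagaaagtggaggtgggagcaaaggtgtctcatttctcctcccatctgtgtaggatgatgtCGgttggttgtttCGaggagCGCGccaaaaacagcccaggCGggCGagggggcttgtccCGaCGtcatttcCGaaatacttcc
Cox8b: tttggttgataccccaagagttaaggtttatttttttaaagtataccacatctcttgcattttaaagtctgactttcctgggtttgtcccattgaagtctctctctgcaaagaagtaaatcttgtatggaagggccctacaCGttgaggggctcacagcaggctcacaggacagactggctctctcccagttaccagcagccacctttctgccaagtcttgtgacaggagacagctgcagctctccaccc

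Cox6b1 had 14 CpG dinucleotides and its testis form Cox6b2 had 8. Cox7a2 had 14 and its muscle form Cox7a1 had 4, and Cox8a had 11 and its muscle form Cox8b had 1. In each of the 3 pairs the restricted form had fewer. The fourth restricted form in the table, Cox7b2, had 9. Low counts were not particular to restricted forms. Of the other 62 members with a promoter, 49 (79.0%) had 10 or more, while Ndufc2, at 10.63 in untreated cells, had 4 and Uqcr10, at 10.50, had 5. The level of Cox8b was below the floor, while those of Cox6b2 and Cox7a1 were above it, so a low CpG count did not go with a value under the floor in every pair.

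The effect of added BMP4 was then read from the BMP4 and untreated arrays. No member differed by 1.5-fold. Of the 20122 expressed probe sets with 1 symbol, 0.517% passed that limit upwards and 0.0596% downwards, so that a count of 0 among 149 is near the background. The median member difference was 0.00, as it was over all probe sets. Differences ran from −0.26 for Cox7b2 to 0.14 for Uqcrc2, and 128 of the 149 lay within 0.1 of the untreated array. Of the members, 44 (29.5%) were higher by any amount, 64 (43.0%) lower and 41 exactly equal, against 28.9% higher and 31.9% lower over all probe sets. At least 0.1 higher were 5 (3.36%), against 11.9%, and at least 0.1 lower were 16 (10.7%), against 11.8%. Among the 112 members with a mean above 9, 38 were higher and 51 lower, against 36.8% and 39.2% of all 2117 probe sets at that level.

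Complex I supplied 14 of the 16 probe sets that were at least 0.1 lower with BMP4. It holds 69 of the 149 members above the floor, and the 14 are 20.3% of its probe sets, against 11.8% of all. Ndufb7, an accessory subunit, measured 10.64 untreated and 10.40 with BMP4, a difference of −0.24. Ndufv2, an iron-sulfur subunit beside Ndufv1, differed by −0.22 and −0.15 by a pair of probe sets, and Ndufb11 by −0.20 and −0.11. Ndufs8, a core iron-sulfur subunit, differed by −0.19 and −0.15 by its highest probe sets. In each of these genes another probe set was nearly or exactly equal: −0.01 for Ndufb7, 0.03 for Ndufv2, 0.00 for Ndufb11 and 0.00 for a pair of Ndufs8 probe sets. Ndufa3, an accessory subunit, was lower by both of its probe sets above the floor, by −0.12 and, with the plain suffix, −0.14. Outside complex I, the probe sets at least 0.1 lower were those of Cox7b2, at −0.26, and of Atp5d in complex V, at −0.14. The other probe set of Atp5d gave 0.07.

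The difference between probe sets went with their design. An identifier that ends in a plain _at marks probes meant for 1 transcript, while _a, _s and _x mark probes shared by transcripts of a gene, by several genes, or able to cross-hybridise. Among complex I probe sets with these other suffixes, 24 of 38 were lower with BMP4 and 5 were higher. At least 0.1 lower were 12 (31.6%), and the median difference was −0.03. Among the 31 with the plain suffix, 10 were lower, 11 were higher, 2 (6.45%) were at least 0.1 lower and the median was 0.00. In complexes II to V the other suffixes gave 20 of 42 lower and 14 higher, and the plain suffix 10 of 38 lower and 14 higher. Over all probe sets above the floor, 35.6% of those with other suffixes and 30.4% of those with the plain suffix were lower with BMP4. The shares at least 0.1 lower were 13.3% and 11.2%, in the same order. The lower values of complex I with BMP4 thus lay mainly in 1 class of probe sets, and the cause was not tested.

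Higher values with BMP4 were small. Besides Uqcrc2 at 0.14, the largest difference was 0.13 in complex I for Ndufb6, an accessory subunit of the membrane arm, at 10.06 untreated and 10.19 with BMP4. In complex V it was 0.12 for Atp5pb, the b subunit of the outer stalk, at 10.39 and 10.51, in complex II 0.12 for Sdhc, and in complex IV 0.09 for Cox8a. The other probe sets of Ndufb6 and Atp5pb gave −0.03 and −0.02, opposite in sign. Uqcrc2 and Cox8a gave only 0.01 and 0.0013 by their probe sets with the highest level, and Sdhc gave 0.03 by its other one. Across 115 member probe sets of 45 genes, differences measured by probe sets of 1 gene scattered with a pooled SD of 0.06, a measure of agreement between probe sets and not of replicate error.

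**Figure D3:**
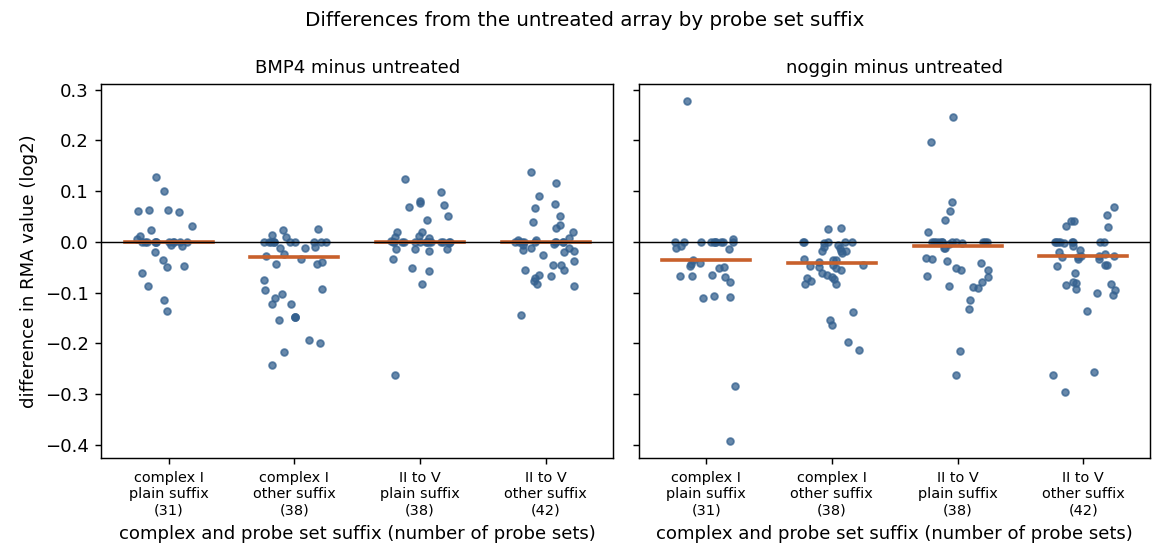
Difference in RMA value (log2, vertical axis) from the untreated array for the 149 member probe sets above the floor, with BMP4 (left) and noggin (right), split on the horizontal axis by complex I against complexes II to V and by plain _at against other suffixes; points are probe sets and bars are medians. With BMP4 the complex I probe sets with other suffixes reach −0.24 and have a median of −0.03, and the medians of the other 3 sets are 0.00.

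The noggin array was set against the same untreated array, which the comparisons therefore share. No member differed by 1.5-fold, against 0.00994% of all probe sets at least that much higher and 0.159% at least that much lower. The members were lower in small steps: 99 of the 149 (66.4%) were lower by any amount, 16 (10.7%) higher and 34 exactly equal, against 37.7% lower and 25.5% higher over all probe sets. Their median difference was −0.03, against 0.00 for all. At least 0.1 lower were 20 (13.4%), near the 14.5% of all probe sets, and at least 0.1 higher were 3 (2.01%), against 8.52%. The members' share below 0 exceeded that of all probe sets, while their share at least 0.1 lower did not.

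The count was also taken by level and under other scalings. Among probe sets with a mean above 9, 81 of 112 members (72.3%) were lower with noggin, against 48.5% of all such probe sets, and 10 were higher, against 28.4%. With a loess correction for level, 91 of the 149 members were lower and 58 higher, against 35.9% lower and 64.1% higher over all probe sets. With the arrays centred on their medians the members' counts were also 91 and 58, while 66.0% of all probe sets were then higher. Centring raised every difference alike, so it counted the 34 exactly equal members (22.8%) as higher, and likewise the 36.8% of all probe sets that were equal. Loess also moved equal values off 0, so part of the contrast under both scalings comes from equal values. The poly-A control RNAs were lower on the same array, and their part in the result was not tested.

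All 5 complexes had a median below 0 with noggin. Complex I had 50 of 69 probe sets below the untreated array and 4 above it (median −0.04), and complex II 6 of 7 below and 1 above (median −0.08). Complex III had 10 of 14 lower and 2 higher (median −0.03), and complex IV 17 of 30 lower and 3 higher (median −0.01). For complex V, with 16 of 29 lower and 6 higher, the median was −0.0041, the nearest to 0. The differences between complexes were not tested.

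The signs were also counted by gene. Of 45 genes with several probe sets above the floor, 21 had all of them lower with noggin, 0 had all of them higher and 8 had both signs. With BMP4 the counts were 6 all lower, 5 all higher and 13 with both signs. The same counts were not made over all genes, so those of the members are not read as a result about them. The pooled SD among probe sets of a gene was 0.07 with noggin and 0.06 with BMP4, and the sign counts move with the larger share of members below 0 with noggin. Ndufa5, an accessory subunit of the peripheral arm, had the largest difference: it measured 8.91 untreated, 8.79 with BMP4 and 8.51 with noggin, a difference of −0.39, and its other probe set gave −0.16. Ndufa7 was lower by all 5 of its probe sets, by −0.01 to −0.07. Ndufb6 gave −0.21 and −0.08, Sdhc −0.26 and −0.09, Uqcrh −0.13 and −0.10, and Ndufv2 −0.04 to −0.07 over 3 probe sets. Ndufa7, Ndufb6, Uqcrh and Ndufv2 were chosen for mention in this respect after their values were seen.

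Cox7b2, by its only probe set, differed by −0.26 with noggin, and Ndufb10, an accessory subunit with 1 probe set, by −0.14. Some other large differences belonged to 1 of several probe sets. Atp5o gave −0.30 by a probe set with the _x suffix, at 9.34 untreated, 9.28 with BMP4 and 9.04 with noggin, and −0.05 by its higher one. Cox6c, a subunit with a single membrane span, gave −0.26 and 0.00, and Uqcrb −0.21 and −0.05. Ndufs4, an accessory subunit needed for a stable complex I, gave −0.28 by a probe set at 5.53 in untreated cells and 0.00 by that at 8.88. The largest differences above 0 were those of low probe sets. Ndufc2 gave 0.28 by a probe set at 3.18 untreated and 3.46 with noggin, which only there exceeded the floor, while its others lay between −0.07 and 0.00. Cox8c was higher by 0.25 and Atp5c1, by a probe set at 4.47, by 0.20. Atp5b was higher by 0.08 and Uqcrc2, by 1 of its probe sets, by 0.05.

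**Figure D4:**
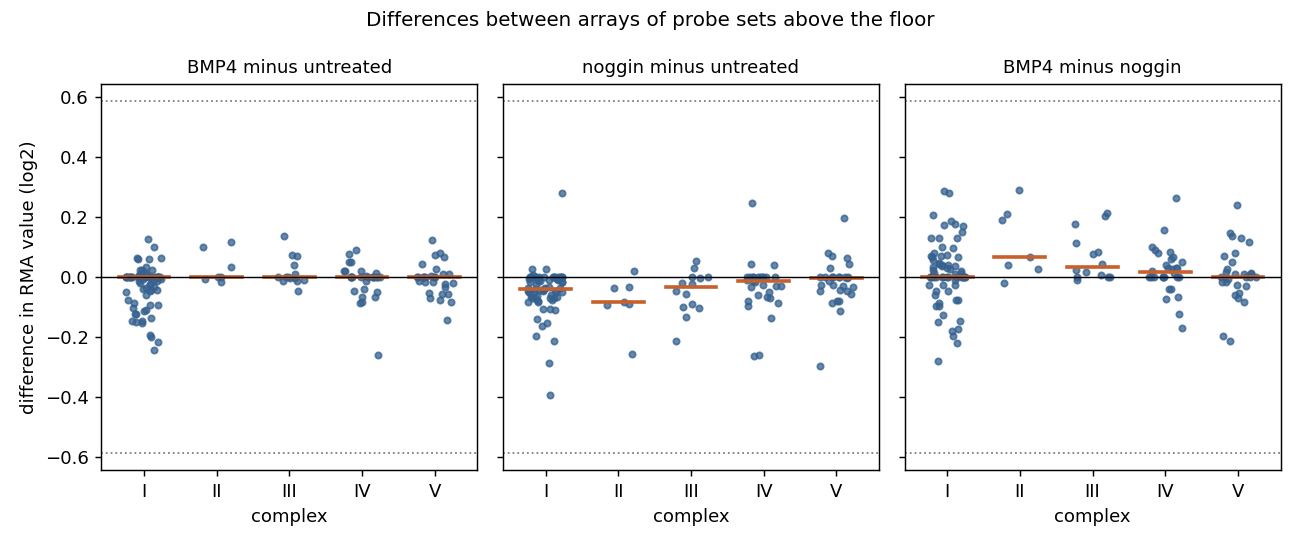
Difference in RMA value (log2, vertical axis) for the 149 member probe sets above the floor by complex (horizontal axis) in the 3 comparisons; points are probe sets, bars are medians, and dotted lines mark 1.5-fold. All points lie inside the dotted lines, and with noggin the medians of the 5 complexes run from −0.08 to −0.0041.

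Cells with added BMP4 were also set against cells with noggin. It uses the 2 treated arrays already compared with the untreated one, so its values follow from those above. No member differed by 1.5-fold, against 0.989% of all probe sets higher and 0.129% lower by that much. Higher with BMP4 than with noggin were 82 of the 149 (55.0%) and lower 39 (26.2%), against 37.6% and 30.0% of all, with a median of 0.01 against 0.00. At least 0.1 higher were 25 (16.8%), against 18.5%, and at least 0.1 lower were 12 (8.05%), against 13.0%. Among probe sets with a mean above 9, 65 of 112 members were higher, against 48.4%. With a loess correction the members divided 77 to 72 and with centred arrays 69 to 80, against 41.9% higher and 58.1% lower of all probe sets with loess and 33.2% and 66.8% with centring. Centring moves every probe set alike, so it counts the 28 exactly equal members, and the 32.4% of all probe sets that were equal, as lower. Both anchors of complex II were higher with BMP4, Sdhc by 0.29 and 0.21 and Sdhd by 0.19 and 0.07. Ndufs4 was higher by 0.28 and Ndufa5 by 0.28, Cox6c by 0.26, Atp5o by 0.24 and Uqcrb by 0.21, each by the probe set that was lower with noggin. Lower with BMP4 were Ndufc2 by its low probe set, at −0.28, Ndufs8 at −0.22, Atp5d, the delta subunit of the rotor, at −0.21, Cox8c at −0.17, and Sdha and Uqcr10 at −0.02 and −0.01. The other probe set of Atp5d gave 0.15. Another Sdha probe set above the floor gave 0.03, and the other probe sets of Uqcr10 gave 0.02 and 0.00.

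Genes that serve the chain without matching the names were counted by the highest probe set of each gene. None of them passed 1.5-fold in any of the 3 comparisons, against 0.224% of genes higher and 0.0517% lower with BMP4 0.00862% and 0.069% with noggin, and 0.379% and 0.138% between the treated arrays. Of 43 assembly factors above the floor, 9 were higher and 21 lower with BMP4, and 3 were higher and 25 lower with noggin, where 26.8% of all genes were higher and 36.2% lower. With BMP4 the shares of all genes were 24.8% and 35.6%. Between the treated arrays 21 assembly factors were higher with BMP4 and 10 lower, against 33.1% and 34.1% of all genes. Tmem126b, a complex I assembly factor, stood highest with BMP4 at 0.24 and Atpaf1, which helps to build the head of the ATP synthase, lowest at −0.18. With noggin they ran from 0.05 for Lrpprc, which stabilises mitochondrial messenger RNAs, to −0.28 for Cox20, a chaperone of complex IV. Uqcc1, an assembly factor of complex III, had the largest difference between the treated arrays, at 0.39.

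Of 15 regulators of mitochondrial genes above the floor, 4 were higher and 10 lower with BMP4, against 24.8% and 35.6% of all genes. They ran from 0.13 for Tfb2m, a mitochondrial transcription factor, to −0.17 for the coactivator gene Ppargc1b. Between the treated arrays 3 were higher with BMP4 and 10 lower, against 33.1% and 34.1% of all genes. With noggin 7 were higher and 7 lower, against 26.8% and 36.2% of all genes, from 0.27 for Hcfc1, a chromatin-associated cofactor, to −0.12 for Myc. Ppargc1a, the coactivator known for driving mitochondrial biogenesis in muscle and brown fat, was not above the floor, at 2.18 on all 3 arrays, while Nrf1 measured 7.75, 7.63 and 7.67 and Gabpa 8.82, 8.83 and 8.91.

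Among 12 citric acid cycle genes, 5 were higher and 5 lower with BMP4, and 2 were higher and 7 lower with noggin, beside the shares of all genes given for the assembly factors. Ogdh, of the oxoglutarate dehydrogenase complex, was highest in both, at 0.19 and 0.16. The 5 further subunits and carriers on the array were Cyc1, Cycs, Cyct, Ndufab1 and Atpif1. On the BMP4 array 4 of them were lower and 0 higher, against 35.6% and 24.8% of all genes. Cyct had the largest of those differences, at −0.20. With noggin 4 of the 5 were lower and Cyc1, cytochrome c1 of complex III, was higher by 0.05, against 36.2% lower and 26.8% higher of all genes. Atpif1, the inhibitor of the ATP synthase, had the largest difference, at 9.84 untreated, 9.75 with BMP4 and 9.53 with noggin. Subunits encoded in mitochondrial DNA were not analysed here.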

How the data were processed

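Expression was measured on 3 arrays, 1 per condition. The deposited values are log2 expression per probe set; the submitters' processing notes name RMA, whose version is not given in the sources used here, nor is a genome build. RMA corrects background, makes the arrays' distributions alike by quantile normalization, so a change in total RNA would not show, and summarises probes by median polish, which can give exactly equal values: 12.8% of the member probe sets above the floor were equal on all 3 arrays, against 24.3% of all. The number of arrays limits the precision, and there is no depth to report.

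The platform annotation supplied gene names; 34945 had 1 symbol, without the 64 controls. Values were used as deposited. Counts, medians and differences were computed in Python 3.11.15 with pandas 2.3.3, checked on simulated data, and set beside the same over all probe sets with 1 symbol above the floor (3.44, the median of all values). The limit was 1.5-fold. For gene lists, a gene was represented by its probe set with the highest mean.

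Every member was accounted for by complex. Named with values were isoform families, core subunits, members past 1.5-fold, the probe sets with the largest differences of each complex in each direction, and the extremes of the pathway lists; other names serve as examples chosen after their values were seen. The members and lists were chosen with earlier results of these data known, and the level of 9, the suffix split and the gene backgrounds were added after values were seen. Alternatives were other floors, genes as units, plain suffixes, centring, loess (span 0.3), subunits only and other limits.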

Additional observations from a re-analysis of the deposited data

How the results depend on the processing

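Each condition had 1 array, so no array could be left out, and no difference has a replicate error. With 1 array per condition no paired analysis was possible, and the labels give no replicate numbers. The count of members past 1.5-fold stayed at 0 in all 3 comparisons under every other floor, unit, suffix and scaling tried, and at a limit of 2-fold. At the lower limit tried, 0.32 on the log2 scale, it was 1 with noggin against untreated cells, Ndufa5, and 0 in the other comparisons. The median member difference with noggin lay between −0.04 and −0.01 under the 9 alternatives and was nearest to 0 with plain suffixes alone. With BMP4 against untreated cells it lay between −0.0064 and 0.00, and between the treated arrays it was below 0, at −0.0053, with centred arrays alone. The number of the 164 member probe sets above the floor was 128 with a floor at the 75th percentile, 141 at the 60th, and 148 if all 3 arrays had to exceed it. With probe sets averaged per gene, the difference with noggin stayed within the spread between probe sets in 63 of 79 genes. Differences of this size are close to that spread, 0.06 with BMP4 and 0.07 with noggin.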
